A study of Homo sapiens with 12 samples.

Results

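Exon arrays carry probes against transcripts that stand outside NCBI's RefSeq catalog, and 18510 of the 233164 non-control probes (7.94%) measured in MDA-MB-231 cells were of this kind. They were chosen by the name of their target in the scanner files: any probe whose name begins with none of NM_, NR_, XM_ or XR_, the prefixes of RefSeq's curated and predicted coding and non-coding RNAs. MDA-MB-231 is an established triple-negative breast cancer cell line. The 12 arrays fall into 4 groups of 3 biological replicates. The cntrl cells received negative control oligonucleotides for both agents, mimic145 cells the miR-145-5p precursor mimic, sirnaAGO2 cells a Dicer-substrate siRNA against AGO2, and sirnaAGO2+mimic145 cells both agents. All were transfected cells of 1 line, with 5 nM of mimic or its control and 500 pM of siRNA or its control for 72 h.

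MicroRNAs guide Argonaute proteins to partly complementary sites in RNA, mostly through the seed at their 5′ end, and the bound transcripts are repressed or degraded. AGO2 is the member of the Argonaute family that can also cut its target. Sites are best known in messenger RNAs, while long non-coding RNAs can carry them too. Loss of miR-145-5p is frequent in breast tumors, and the study asked how far its effect on RNA levels rests on AGO2. The sequence of the mature miRNA is shown as it is the agent whose effect is measured here, with its seed (bases 2 to 8) in capitals, from RefSeq at chr5:149430661-149430683 on the plus strand of GRCh38.p14.
hsa-miR-145-5p: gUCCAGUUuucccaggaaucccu

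The non-RefSeq probes belong to 5 classes by the form of the name. The largest class, 8000 probes, bears only the probe's own name, with no transcript. Another 5734 probes name an Ensembl transcript (ENST), 3174 a GenBank sequence, 1017 a tentative human consensus (THC, an assembly of expressed sequence tags) and 573 a transcript of a lincRNA catalog (TCONS), with 12 probes left over. Among the GenBank names, 1108 probes begin with AK, the letters of full-length cDNA clones, and 423 with BC, those of the Mammalian Gene Collection. Of 7173 accession names, 5300 were covered by 1 probe, 1177 by 2 and 696 by 3 or more, up to 26. The files pair none of these names with a gene symbol, so the transcripts are given by accession only. Most non-RefSeq probes were printed in 1 spot (83.0%, against 21.3% of RefSeq probes), and 79.8% were of the A_37 probe series that makes up 89.2% of the RefSeq probes.

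AGO2 was low on the arrays labelled as silenced. Its signal, a mean log2 over 19 RefSeq probes, was 9.12 ± 0.10 (SD, n = 3 arrays) in cntrl and 8.41 ± 0.05 in sirnaAGO2, without overlap. It was 9.40 ± 0.04 in mimic145 and 8.34 ± 0.07 in sirnaAGO2+mimic145. VIM, CD44, KRT18 and GATA3 were well above background in 100% of their probe readings, KRT8 in 97.4%, EPCAM in 88.3% and ERBB2 in 86.7%. ESR1 was so in 44.6%, PGR in 13.9% and FOXA1 in 4.17%. A slide held 2 arrays that share a replicate number and differ in the mimic alone, the mimic array always at position 2, so that silenced and control cells never met on a slide. Position and mimic therefore cannot be told apart, and neither can silencing and the slides of an arm. By the share of spots well above background, from 60.5% to 77.3%, mimic145 replicate 3 was the highest array.

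Fewer non-RefSeq than RefSeq probes gave signal. A probe was counted as detected on an array where at least 0.5 of its spots were called well above background by the scanner software. On the 3 cntrl arrays, 49.6%, 45.2% and 50.9% of the non-RefSeq probes were detected, and on the 3 mimic145 arrays 43.6%, 38.8% and 59.2%. On the sirnaAGO2 arrays the shares were 48.0%, 46.1% and 52.2%, and on the sirnaAGO2+mimic145 arrays 44.7%, 39.3% and 49.5%. The mimic145 group held both the lowest and the highest share of the 12 arrays, and every group overlapped every other.

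RefSeq probes were detected at 63.5% to 79.1%. The difference on the same array was -24.2 ± 1.59 percentage points (SD, n = 12 arrays), lower on 12 of 12 arrays (two-sided exact sign-flip permutation over arrays, p = 0.000488, which no set of 12 arrays can go below). The gap depended on the probes compared. It was -24.2 points within the A_37 series, -12.6 points among probes printed in 1 spot, and -11.9 points with the looser call of a signal that is positive and significant. Counted once per name, a name being detected where any of its probes was, the difference was -34.0 points. That rule favors names with more probes: 214654 RefSeq probes bear 34011 names, and 18510 non-RefSeq probes bear 15173. RefSeq's own non-coding transcripts (NR_) lay at 37.9% to 56.3%. They were below the non-RefSeq probes of the same array on 12 of 12 arrays, at a mean difference of -1.58 ± 0.55 points (SD, same exact permutation, p = 0.000488). Every array carries the same probes and arrays share slides in pairs, so both p-values describe only how regularly a gap recurs over arrays.

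**Figure D1:**
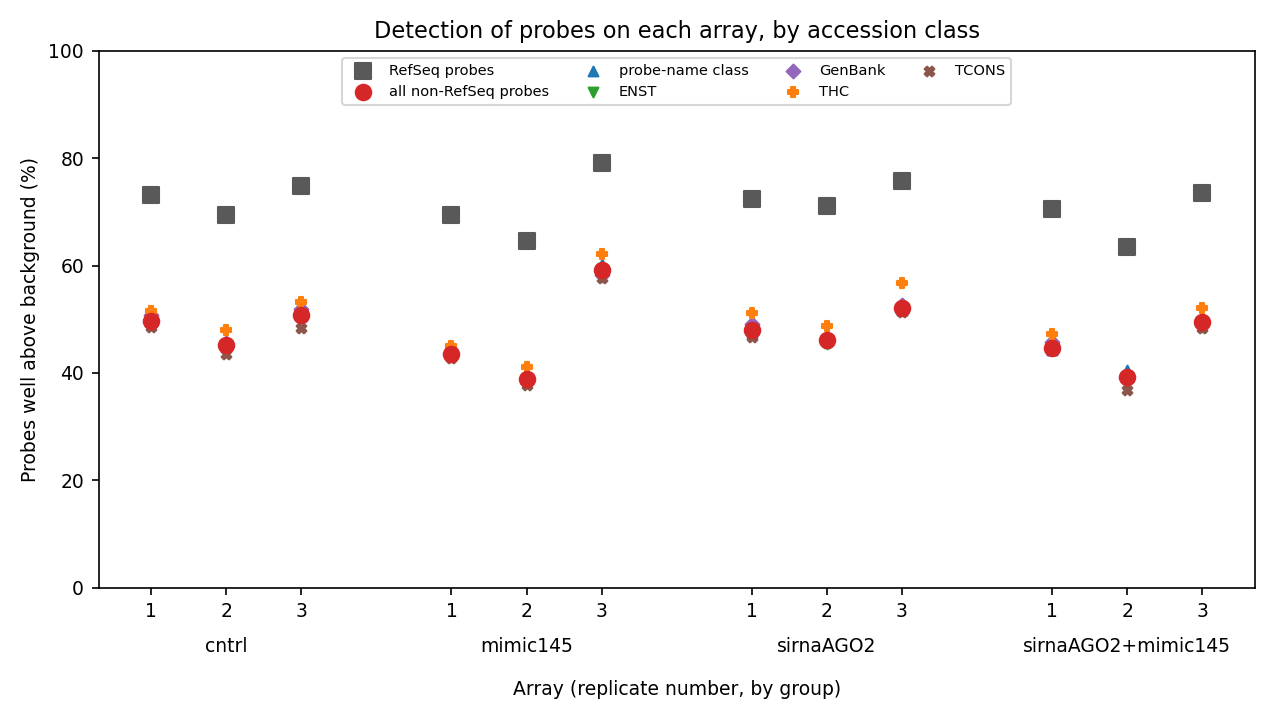
Share of probes well above background (y axis, percent) on each of the 12 arrays (x axis, replicate numbers within groups), for RefSeq probes (gray squares), all non-RefSeq probes (red circles) and the 5 named classes (small symbols). Non-RefSeq probes sit between 38.8% and 59.2%, below the RefSeq probes of the same array on all 12 arrays, and the classes lie close to each other.

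The classes differed little in detection. Their median shares over the 12 arrays ran from 46.2% for TCONS to 49.9% for THC, with 46.5% for ENST, 46.8% for the probes without a transcript and 47.7% for GenBank. Over all arrays, 5819 non-RefSeq probes (31.4%) were detected on every array, against 59.2% of RefSeq probes, and 6488 (35.1%) on none, against 17.3%. The other 6203 were detected on some arrays.

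With 3 replicates no test of the detected share could pass 0.05: the smallest p is 0.1 for 3 arrays against 3 and 0.25 within 3 pairs. Mimic145 minus cntrl was -6.02, -6.41 and 8.35 points in replicates 1, 2 and 3 (two-sided exact permutation test of 3 against 3 arrays, p = 0.9, and within pairs p = 1). In silenced cells the mimic arrays were lower in all 3 replicates, with differences of -3.25, -6.79 and -2.73 points, a mean of -4.25 ± 2.21 (SD, n = 3 pairs, exact permutation p = 0.4 over arrays and 0.25 within pairs). The RefSeq probes of the same arrays differed by -1.90, -7.58 and -2.20 points. SirnaAGO2 minus cntrl was -1.69, 0.85 and 1.33 points (exact permutation p = 1 over arrays and within pairs). Few probes switched entirely. With the mimic in control cells 10 non-RefSeq probes were detected on 3 of 3 mimic145 and 0 of 3 cntrl arrays, and 57 the other way, where 0.0339% and 0.187% of all probes did so. In silenced cells 18 appeared and 117 were lost, against 0.0588% and 0.399% of all probes. As shares of the non-RefSeq probes these are 0.0540%, 0.308%, 0.0972% and 0.632%.

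For the response to the agents, only probes detected throughout some group, on each of its 3 arrays, were used, namely 8682 non-RefSeq probes (46.9%) and 153119 RefSeq probes (71.3%). Of the former, 811 passed through a single group, and of the RefSeq probes 7056. The counts, directions and medians below include these probes and carry that choice, so shares among probes detected on all 12 arrays are also given. Signals were compared on the log2 scale after quantile normalization, with limma, the replicate number as a block, and Benjamini-Hochberg adjustment over all 161801 kept probes; a probe was called at an adjusted p under 0.05. Standard errors of log2 differences had a median of 0.17 for non-RefSeq and 0.14 for RefSeq probes.

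With the mimic in control cells a smaller share of non-RefSeq probes was called than of the array as a whole. Of 8682 probes, 538 (6.20%) were called between mimic145 and cntrl, against 13.2% of all kept probes, 13.6% of RefSeq and 10.5% of NR_ probes. The mimic lowered 238 (2.74%) and raised 300 (3.46%), where 6.31% of all kept probes fell and 6.87% rose. Scaled by the 75th percentile instead, 205 fell and 398 rose, a called share of 6.95% against 14.1% of all kept probes. The median size of the called changes was 0.64 on the log2 scale, with 415 over 0.5 and 100 over 1. At an unadjusted p under 0.05, 1694 passed (19.5%, against 29.3% of all kept probes). In RNA from whole cultures, fewer cells with a transcript and less of it per cell cannot be told apart. The median over all 8682 probes was 0.02, as it was over all kept probes. The quartiles were also close, at -0.20 and 0.21 for non-RefSeq and -0.22 and 0.21 for all kept probes. Among probes detected on all 12 arrays, 369 of 5819 non-RefSeq probes were called (6.34%, 139 lower and 230 higher), against 14.4% of RefSeq probes.

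By class, 202 of 2663 ENST probes (7.59%), 35 of 497 THC probes (7.04%), 208 of 3749 probes without a transcript (5.55%), 79 of 1500 GenBank probes (5.27%) and 14 of 266 TCONS probes (5.26%) were called. ENST probes split evenly, 101 lower and 101 higher, while 80 probes without a transcript fell and 128 rose. Every class lay below the 13.2% of all kept probes.

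The count depends on single arrays. Without cntrl replicate 1, 2 or 3 it was 226, 261 or 225, and without mimic145 replicate 1 or 3 it was 214 or 339. Without all 4 arrays of replicate 1, 2 or 3, it was 17, 211 or 33. It was 159 without the replicate block and 43 with only the 6 arrays compared. In each of these settings the called share of the non-RefSeq probes stayed under that of all kept probes.

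**Figure D2:**
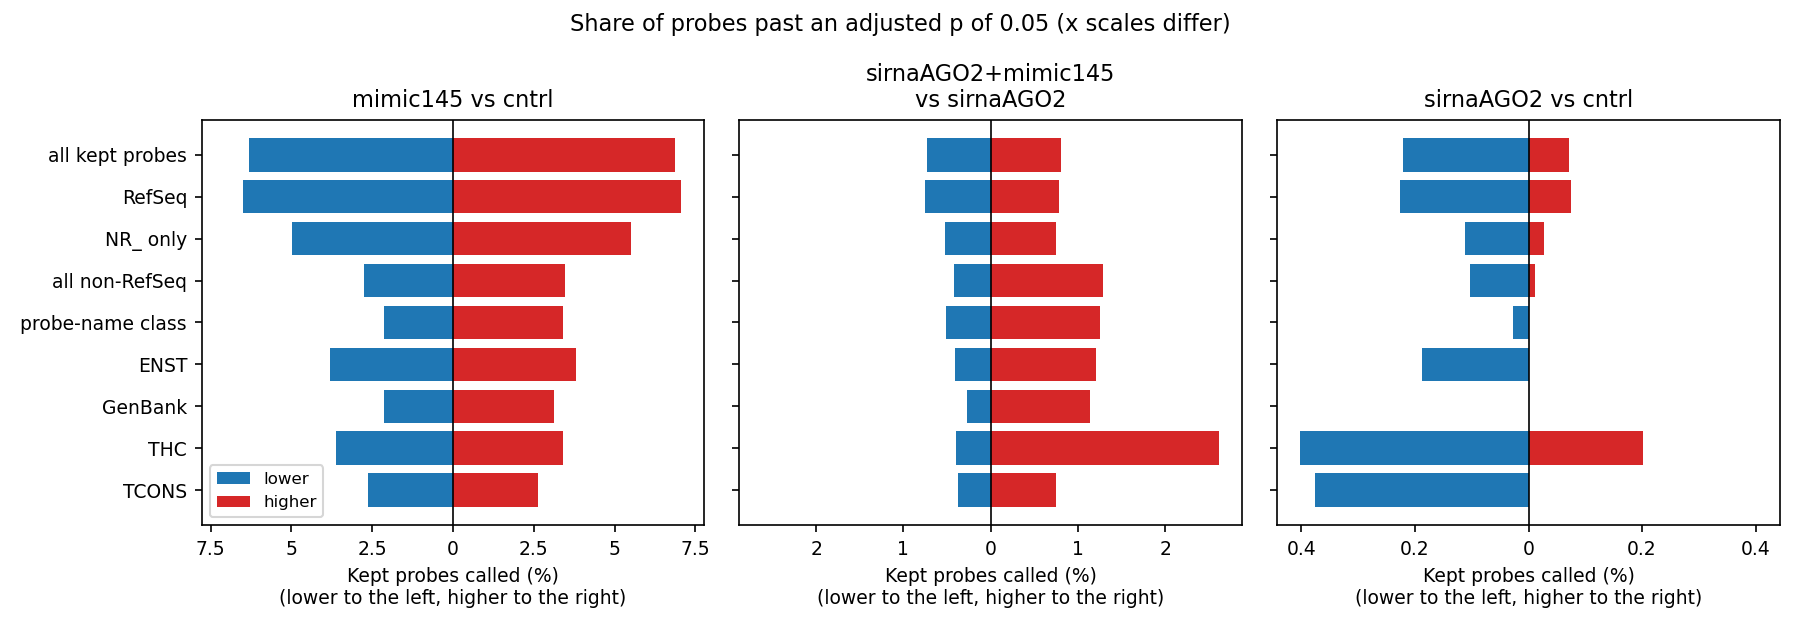
Share of kept probes called at an adjusted p under 0.05 (x axis, percent; lower to the left in blue, higher to the right in red) for all kept probes, RefSeq, NR_ and non-RefSeq probes and the 5 classes, in 3 comparisons with x scales of their own. In mimic145 against cntrl all 5 classes have shorter bars than all kept probes, and in the silenced arm the non-RefSeq bars lean to the higher side.

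Signal and spot number, which differ between the sets, were set beside this share. All kept probes were divided into 4 bands of equal size by mean log2 signal, at 6.78, 7.98 and 9.44. From the dimmest to the brightest band, 8.67%, 11.6%, 15.7% and 18.1% of RefSeq probes were called in mimic145 against cntrl. Of non-RefSeq probes, 6.08%, 5.97%, 6.58% and 6.41% were called. The RefSeq share thus grew with signal and the non-RefSeq share did not, so that the gap was widest among the brightest probes. Among probes printed in 1 spot, 5.92% of non-RefSeq and 11.003% of RefSeq probes were called, and in the brightest band of these 6.02% and 13.8%. Within the A_37 series the shares were 5.99% and 12.7%. A call depends on the standard error as well as on the size of the change. Median standard errors of non-RefSeq and RefSeq probes in the brightest band were 0.139 and 0.115, and 0.143 and 0.123 among its probes in 1 spot. The part of the errors in the shares was not tested. These are descriptions of shares, with no test of the difference.

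**Figure D3:**
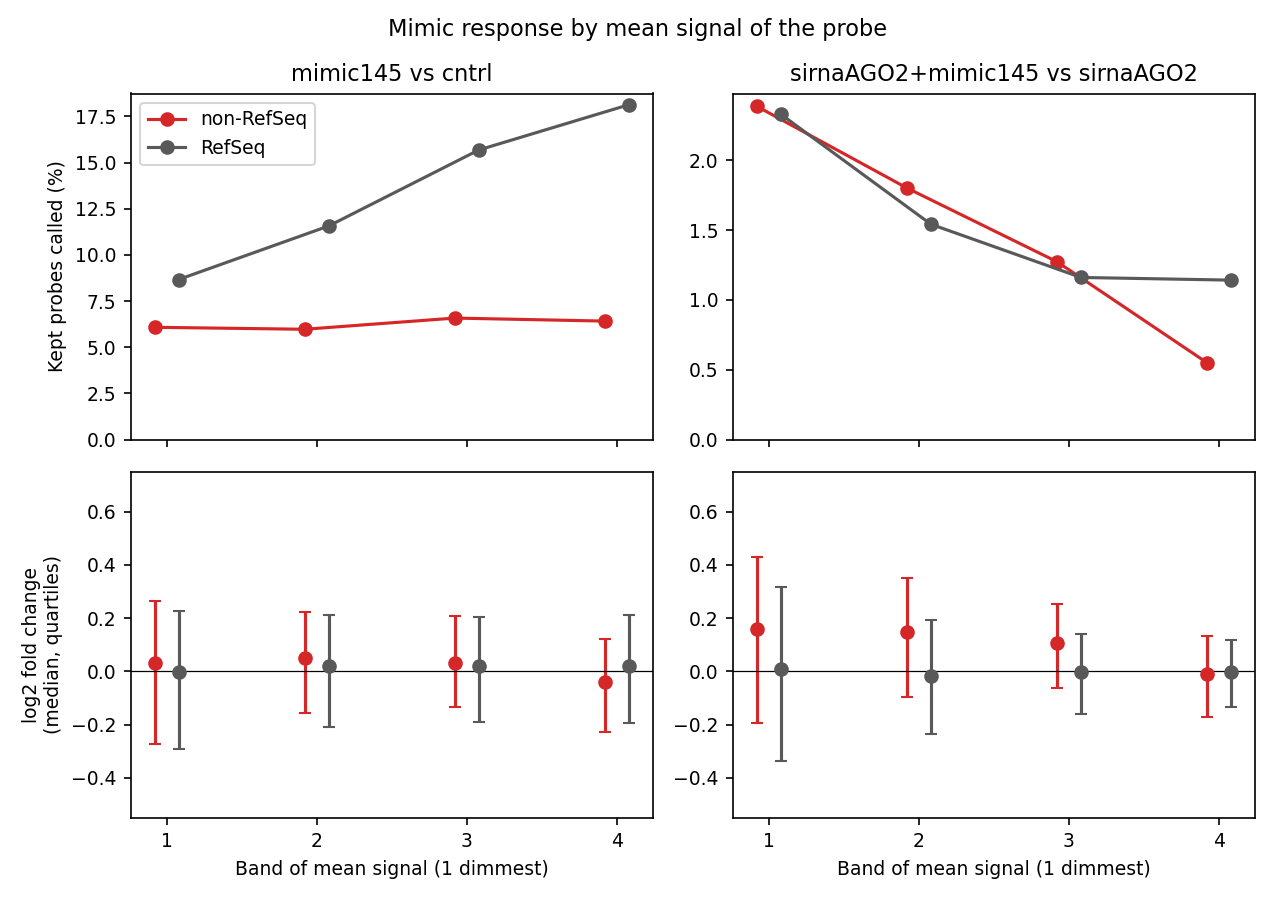
Upper panels, share of kept probes called (percent); lower panels, median log2 fold change with the quartiles as bars, by band of the mean signal (x axis, 1 dimmest), for non-RefSeq (red) and RefSeq (gray) probes, with the mimic in control cells (left) and in silenced cells (right). In control cells RefSeq shares climb from 8.67% to 18.1% while non-RefSeq shares stay between 5.97% and 6.58%, and in silenced cells the non-RefSeq medians are 0.16, 0.15, 0.11 and -0.01.

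In silenced cells 149 of 8682 non-RefSeq probes (1.72%) were called with the mimic, near the 1.54% of all kept probes. The mimic lowered 37 and raised 112 of them, 0.426% and 1.29% of the non-RefSeq probes, where 0.732% of all kept probes fell and 0.81% rose. THC had the highest called share of the classes, 15 of 497 (3.02%), 13 of them higher. ENST had 43 calls, GenBank 21, TCONS 3 and the probes without a transcript 66. At an unadjusted p under 0.05, 2329 non-RefSeq probes passed (26.8%, against 23.5% of all kept probes). This count is not stable: leaving out any 1 of the 12 arrays moved it by over 1.5 times. It was 0 without any 1 of the sirnaAGO2 arrays and 696 without sirnaAGO2+mimic145 replicate 1 (8.02%, against 6.43% of all kept probes). It was 3 without the replicate block (0.0346%, against 0.130%). With 75th percentile scaling it was 833 (9.59%, against 6.53% of all kept probes), of which 57 were lower and 776 higher. Among probes detected on all 12 arrays, the main fit called 96 of 5819 non-RefSeq probes (1.65%, 12 lower and 84 higher), against 1.36% of RefSeq probes.

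The median of the non-RefSeq probes lay above 0 in this comparison in each pair. Over the kept probes, the median log2 difference between sirnaAGO2+mimic145 and sirnaAGO2 was 0.05, 0.18 and 0.10 in replicates 1, 2 and 3, a mean of 0.11 ± 0.07 (SD, n = 3 pairs). For RefSeq probes it was 0.03, -0.01 and 0.02. Those are mostly messenger RNAs (NM_), and RefSeq's NR_ probes leaned the same way as the non-RefSeq probes, at 0.02, 0.11 and 0.08, a mean of 0.07 ± 0.04. An upward median was thus not limited to probes outside RefSeq. The class means were 0.14 for probes without a transcript, 0.10 for GenBank, 0.10 for THC, 0.09 for ENST and 0.02 for TCONS. The shift was seen below the top band of signal: the fitted medians were 0.16, 0.15, 0.11 and -0.01 from the dimmest to the brightest band, where those of RefSeq probes lay between -0.02 and 0.01. Under 75th percentile scaling the 3 pairs gave 0.07, 0.34 and 0.25 for non-RefSeq and 0.04, 0.07 and 0.09 for RefSeq probes. On the same arrays the share of detected probes was lower with the mimic, as given above, and the part of either in the other was not tested.

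With the mimic in control cells the medians of the 3 pairs were -0.03, 0.03 and 0.12, with no common sign. The mimic arrays were at position 2 in both arms, and the part of position in these medians was not tested. Between sirnaAGO2 and cntrl the medians were -0.09, -0.15 and -0.01, where the mean was -0.01 for RefSeq and -0.06 for NR_ probes. This comparison shares its sirnaAGO2 arrays with the silenced arm and its cntrl arrays with the other.

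**Figure D4:**
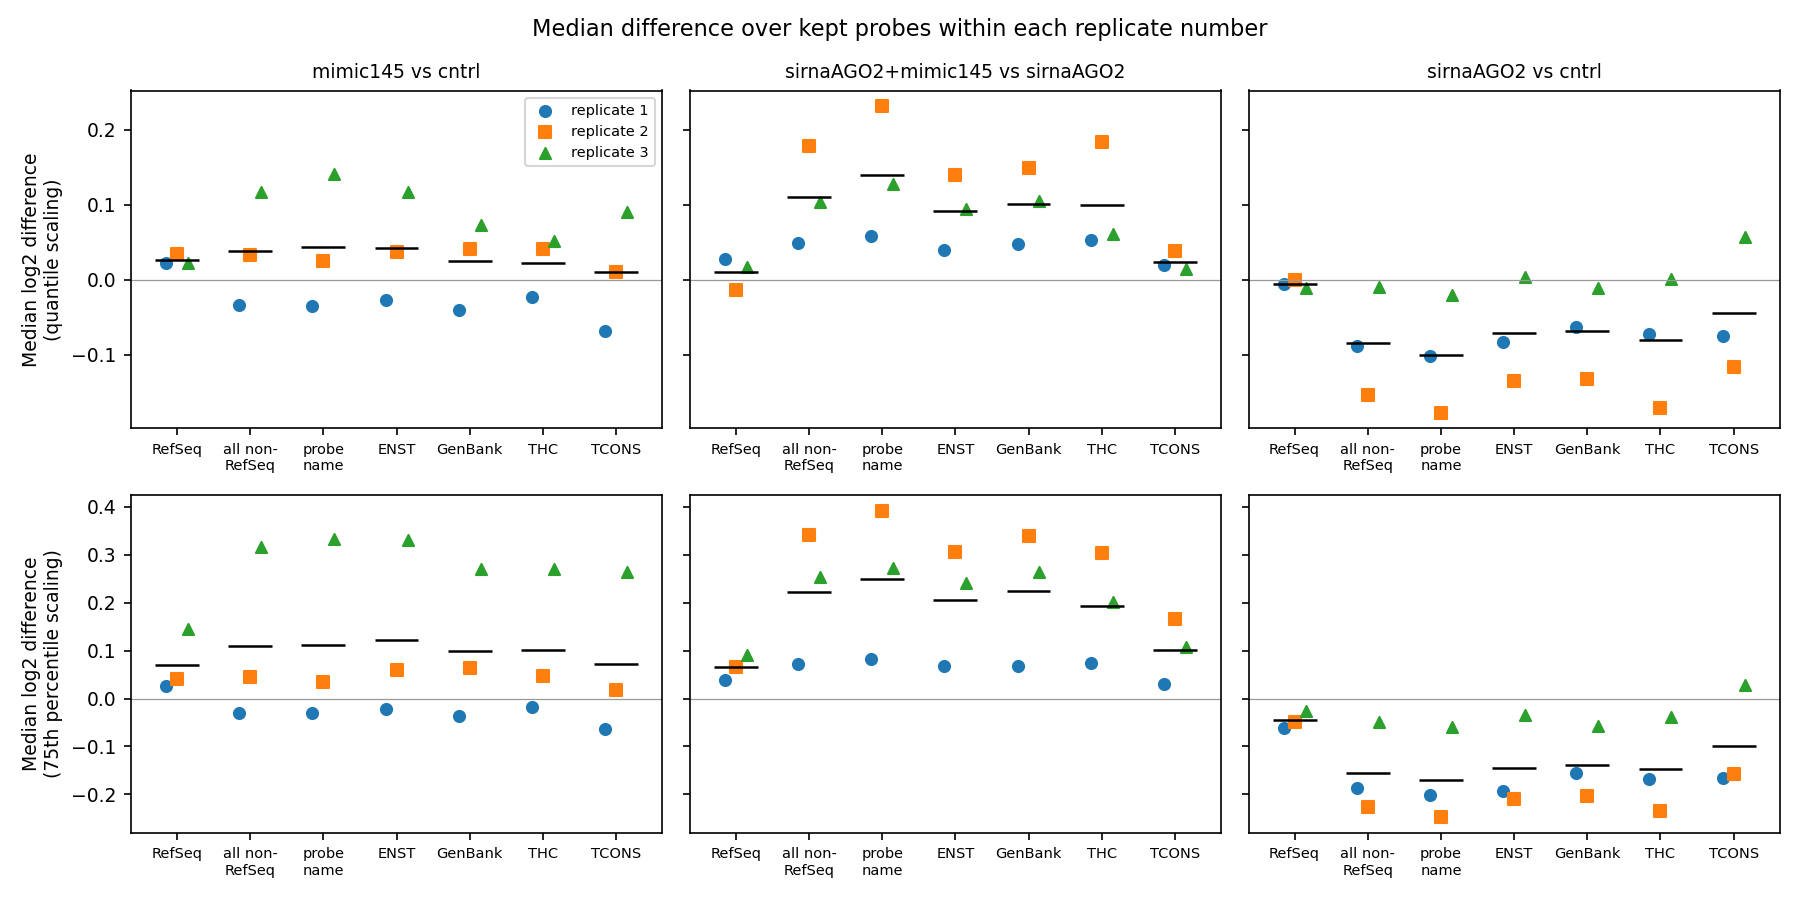
Median log2 difference over kept probes in each replicate (points) and its mean (bar), for RefSeq, all non-RefSeq and the 5 classes, in 3 comparisons, after quantile (upper) and 75th percentile scaling (lower). In sirnaAGO2+mimic145 against sirnaAGO2 the 3 non-RefSeq points are above 0 under both scalings, at 0.05, 0.18 and 0.10 in the upper panel.

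Silencing of AGO2 alone called 10 non-RefSeq probes (0.115%), against 0.292% of all kept probes. Of these 9 were lower and 1 higher in sirnaAGO2 than in cntrl, where 0.221% of all kept probes fell and 0.0711% rose. They were 5 ENST, 3 THC, 1 TCONS and 1 probe without a transcript, and no GenBank probe was called by limma (150 at an unadjusted p under 0.05). At the unadjusted threshold 852 non-RefSeq probes passed (9.81%, against 13.3% of all kept probes). Among probes detected on all 12 arrays, 9 of 5819 non-RefSeq probes were called (0.155%, 8 lower and 1 higher), against 0.336% of RefSeq probes. The 10 calls were all lost without any of the cntrl or sirnaAGO2 arrays of replicates 1 and 3, and without sirnaAGO2 replicate 2. Without cntrl replicate 2, 1 was left. They fell to 2 without any of the mimic145 arrays, and to 6 and 5 without sirnaAGO2+mimic145 replicate 1 or 3. No call was left without the replicate block, nor when slides were fitted as a random block. All these settings kept the non-RefSeq share under that of all kept probes.

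The difference between the mimic's effects in silenced and control cells was tested directly. No non-RefSeq probe passed (limma, smallest adjusted p = 0.162), nor did any of the kept probes (0%). At an unadjusted p under 0.05, 820 of the 8682 (9.44%) passed, where 11.6% of all kept probes did. The paired test of the methods, run on each probe alone, gave 588 at an unadjusted p of at most 0.05 and 0 after adjustment. The 588 are 6.77% of the non-RefSeq probes, where 8.26% of all kept probes passed. Calls in 1 arm only are therefore not shown to differ between the arms.

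The arms share no array, and their calls are set against each other as a description. The calls are not independent, as both lists came from 1 fit of all arrays with a common error estimate and replicate block. Leaving out cntrl replicate 1 took the silenced-arm count from 149 to 8. The mimic arrays held the same slide position in both arms, and the part of position in the shared signs was not tested. Of the 538 non-RefSeq probes called in control cells, 48 were called in the same direction in silenced cells, 18 lower and 30 higher, and 1 in the opposite direction. The 48 are 8.92% of the control list and 32.2% of the silenced list, where the corresponding shares over all kept probes were 7.36% and 62.9%. Taken in the direction of the control arm, the median change of the 538 probes was 0.64 in control and 0.34 in silenced cells, and 89.4% had the same sign there. Over all called probes the values were 0.59, 0.26 and 91.8%. The control-arm medians carry the choice of the probes and are given as descriptions.

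Probes of the same name share a target, so names were also compared by the mean over their kept probes. Of 36536 names in this fit 7705 were non-RefSeq, and 617 of these had 2 or more kept probes. With the mimic in control cells 547 non-RefSeq names were called (7.10%, against 14.3% of all names), in silenced cells 274 (3.56%, against 3.49%) and with silencing alone 11 (0.143%, against 0.463%). Probes of one name often disagreed: of 192 accessions with 3 or more kept probes, 62 had all probes on the same side of 0 in mimic145 against cntrl. Of 41 names with 2 or more probes whose mean was called, 38 had all probes on the same side. As the mean of these same probes chose the names, this agreement carries the choice and is given as a description.

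The transcripts named below had the largest called rises and falls of their comparison among those with the same direction in all 3 replicates, names with 2 or more kept probes coming first, at most 2 in each direction. Their values are means over kept probes of the normalized log2 signal, in the order of replicates 1, 2 and 3. These accessions carry no gene name or role here.

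AW629168, a GenBank accession, had 7.71, 8.06 and 7.47 in cntrl and 8.98, 8.84 and 8.77 in mimic145, and 7.42, 7.50 and 7.37 in sirnaAGO2 and 8.05, 7.68 and 8.16 in sirnaAGO2+mimic145. Its 3 mimic145 values lay above all others. With the mimic it rose by 1.12 ± 0.17 on the log2 scale (SE, adjusted p = 0.00411, limma) in control cells, and it differed by 0.53 in silenced cells (adjusted p = 0.0983). The control-arm call held in 22 of 25 alternatives.

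ENST00000474046, with 3 kept probes of 4, had 6.51, 6.48 and 6.18 in cntrl and 7.42, 7.67 and 7.15 in mimic145, and 6.09, 6.22 and 5.85 in sirnaAGO2 and 6.48, 7.06 and 6.91 in sirnaAGO2+mimic145. In both arms the mimic arrays lay above the arrays without it. It rose by 1.03 ± 0.14 in control cells (adjusted p = 0.00315, limma) and by 0.76 ± 0.14 in silenced cells (adjusted p = 0.0359), with single probes between 0.48 and 1.77 in the former. The calls held in 24 and in 10 of 26 alternatives.

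THC2577854, an assembly of expressed sequence tags, had 7.34, 7.51 and 7.41 in cntrl and 5.98, 6.25 and 5.92 in mimic145, and 7.06, 6.90 and 7.13 in sirnaAGO2 and 6.49, 6.06 and 6.39 in sirnaAGO2+mimic145. The groups with and without mimic did not overlap in either arm. Its log2 change was -1.36 ± 0.14 in control cells (adjusted p = 9.4e-04, limma) and -0.71 ± 0.14 in silenced cells (adjusted p = 0.0387). Its kept probes differed in silenced cells, at -1.37 and -0.06. The control-arm call held in 24 of 25 alternatives.

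ENST00000533434 had 6.11, 6.08 and 6.02 in cntrl and 5.50, 3.63 and 5.03 in mimic145. It had 5.29, 5.06 and 5.05 in sirnaAGO2 and 4.38, 4.10 and 4.95 in sirnaAGO2+mimic145, so that the cntrl arrays lay above all others. With silencing alone its log2 difference was -0.94 ± 0.34 (SE, adjusted p = 0.255, limma). In mimic145 only 1 of 6 probe readings was well above background, so the size of the change is uncertain. It is given with a floor: each array takes the higher of the lowest signal among probes well above background and the probe's own. With this floor the signal was 1.96-fold lower than in cntrl (measured means 4.72 and 6.07, adjusted p = 0.0322, limma). In sirnaAGO2 also 1 of 6 readings, and with both agents 0 of 6, were well above background. Its probes thus passed the filter through cntrl alone, where the signal is highest, and this call carries that choice. The call held in 9 of 25 alternatives.

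In silenced cells the second rise was that of AK126828, a GenBank cDNA, at 6.03, 6.17 and 5.90 in sirnaAGO2 and 6.43, 7.11 and 6.72 in sirnaAGO2+mimic145 (log2 change 0.72 ± 0.16, adjusted p = 0.0485, limma), a call that held in 7 of 26 alternatives. In control cells its values overlapped, at 6.36, 6.49 and 5.97 without and 6.26, 6.51 and 6.62 with the mimic. The difference between the arms was 0.53 (adjusted p = 0.373).

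AF212162, another GenBank accession, had 8.04, 8.53 and 8.04 in sirnaAGO2 and 7.38, 7.72 and 7.23 in sirnaAGO2+mimic145, a log2 change of -0.76 ± 0.16 (adjusted p = 0.0430, limma). In control cells it had 8.12, 8.32 and 8.12 without and 7.65, 8.06 and 6.96 with the mimic, a change of -0.63 ± 0.16 (adjusted p = 0.0306). It was lower with the mimic in 6 of 6 replicate pairs, with all readings well above background. The silenced-arm call held in 9 of 26 alternatives.

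ENST00000423781 was lower with either agent. It had 7.15, 7.61 and 7.51 in cntrl, 5.99, 6.47 and 6.12 in mimic145, 6.11, 6.77 and 6.16 in sirnaAGO2, and 5.63, 5.31 and 5.28 in sirnaAGO2+mimic145. The cntrl arrays stood above all others and the arrays with both agents below all others. The log2 change was -1.23 ± 0.18 with the mimic (adjusted p = 0.00342, limma) and -1.08 ± 0.18 with silencing (adjusted p = 0.0495). With both agents none of 6 probe readings was well above background, so the size of this change is uncertain. The signal measured was 1.92-fold lower than in sirnaAGO2 (means 5.41 and 6.35, adjusted p = 0.0357, limma). The floor used for ENST00000533434 left this mean unchanged. The silencing call held in 6 of 24 alternatives and that of both agents against silencing in 7 of 24.

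ENST00000560295 fell with silencing, from 8.60, 8.33 and 8.21 in cntrl to 7.57, 7.65 and 7.61 in sirnaAGO2 (-0.77 ± 0.11, adjusted p = 0.0318, limma). This call held in 8 of 26 alternatives. With both agents it had 7.51, 7.38 and 7.61, and 8.82, 8.70 and 8.66 with the mimic alone, so that the 6 arrays of the silenced arm lay below the 6 of the other.

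THC2685595, measured by 1 probe, carried the 1 rise among the 10 calls with silencing. Its values were 6.33, 6.47 and 6.02 in cntrl, 7.53, 7.68 and 7.24 in mimic145, 6.77, 7.03 and 6.74 in sirnaAGO2, and 7.29, 7.64 and 7.16 in sirnaAGO2+mimic145. The cntrl arrays lay below all others. It rose by 1.21 ± 0.08 with the mimic in control cells, by 0.52 ± 0.08 with the mimic in silenced cells and by 0.58 ± 0.08 with silencing (adjusted p = 2.62e-04, 0.0256 and 0.0348, limma). The call with silencing held in 5 of 26 alternatives. The difference of the mimic's effects was -0.70 ± 0.11 (adjusted p = 0.144).

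**Figure D5:**
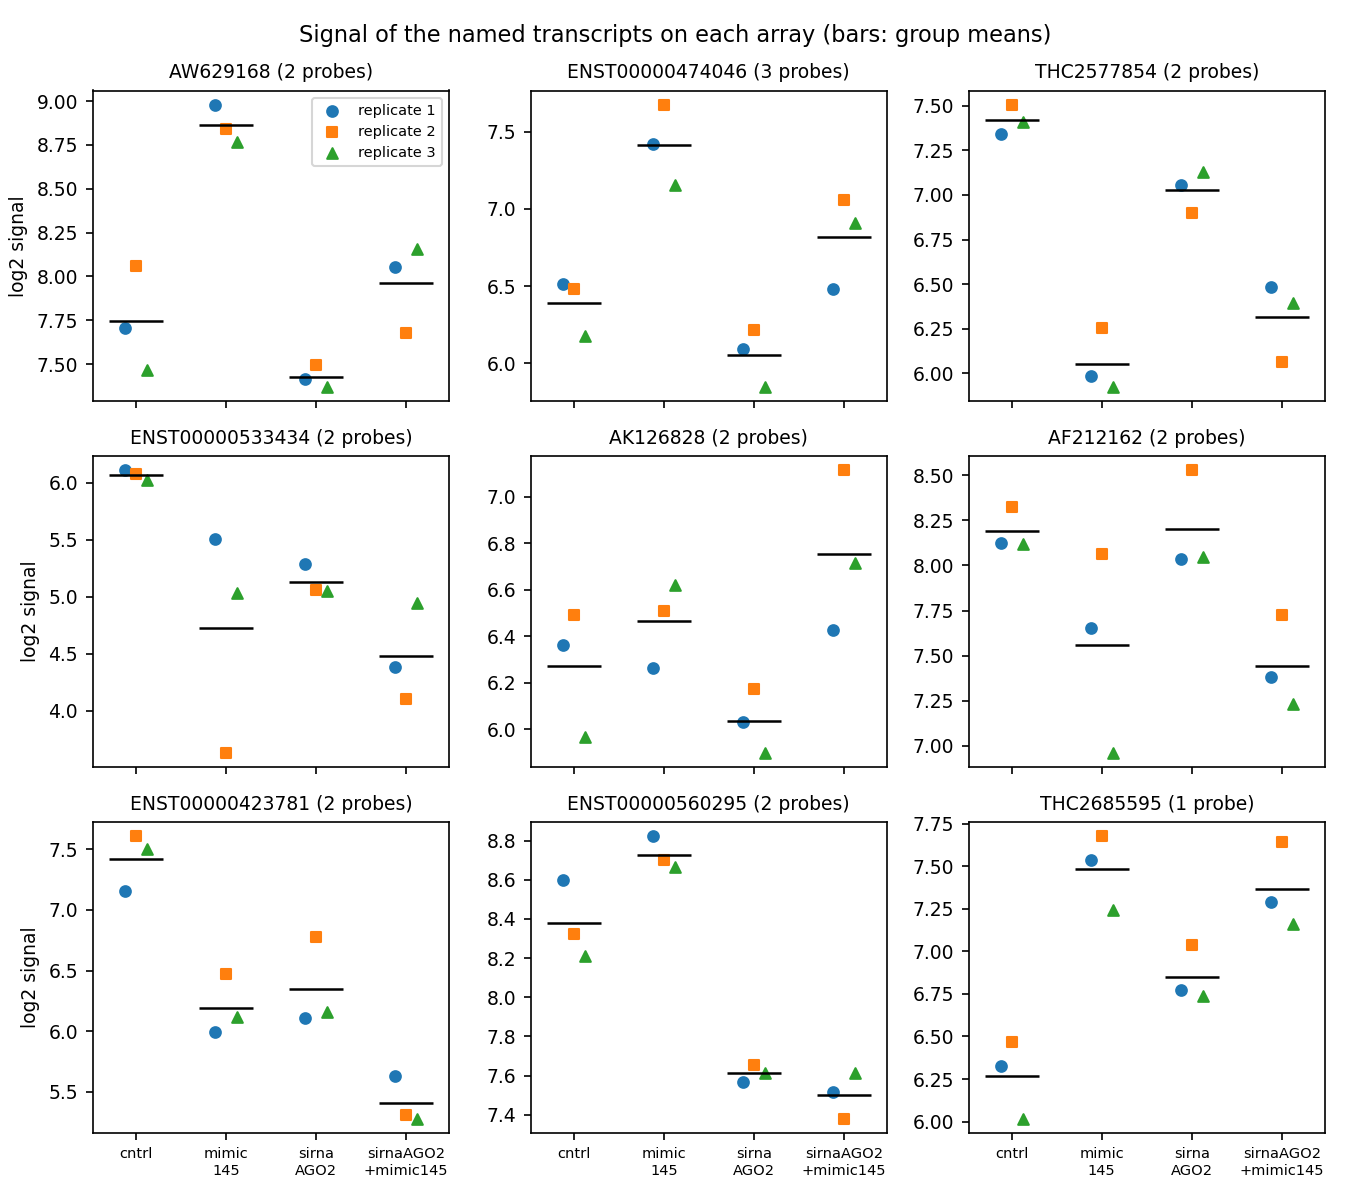
Normalized log2 signal (y axis, scale of its own in each panel) of the 9 named transcripts on the 12 arrays (points, marked by replicate) with group means (bars), by group (x axis). ENST00000474046 and THC2577854 separate by the mimic in both arms, ENST00000560295 by silencing, and ENST00000423781 is highest in cntrl and lowest with both agents.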

How the data were processed

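RNA of MDA-MB-231 cells was labeled with 1 dye and hybridized to 12 exon arrays. The authors read the slides with Agilent Feature Extraction 10.7.3.1 and deposited, per spot, the processed intensity, corrected for background within the array but not normalized between arrays, and flags (scored 0 or 1) for signal above background. The authors also deposited a log2 table, quantile normalized after values under 1 were set to 1, used here as an alternative; it holds 34.5% of the non-RefSeq and 98.1% of the RefSeq probes. Of 420288 spots per array, 8943 were controls. Between 304 and 462 spots were outliers and were left out, and none was saturated or under 1.

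The processed intensity was quantile normalized over the 12 arrays, log2 transformed and averaged over the spots of a probe. Of the kept non-RefSeq probes, 12 lacked a value on at least 1 array and were fitted without it. Groups were compared with limma 3.58.1 in R 4.3.3, in 1 fit of all 12 arrays with the replicate number as a block, after the paired test named in the study's methods. Deviations from group means correlated at 0.122 to 0.556 over all kept probes for the 18 pairs of arrays of one number in different groups, and at -0.498 to 0.219 for the other 36. Tests were two-sided. Plots were drawn with matplotlib 3.10.9. The number of arrays limits the precision.

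On simulated arrays with 19991 probes of which 200 were raised by 1 in mimic145 against cntrl, 71% of these were called, and with none changed 0 probes were called. The simulated noise was normal and independent between probes and arrays apart from a replicate effect. It held no slide or position effect, so the error rate of the calls in the data was not tested.

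The probes, lists and tests were chosen with earlier results of these data known. Transcripts were named by a rule of size and direction; of up to 5 that the rule allows in each direction, at most 2 are given, as their accessions have no gene name in the files, and 0 of the 7173 accessions matched the RefSeq gene table. Planned gene groups could therefore not be formed, and levels of different probes were not ranked. Alternatives were other scalings and background corrections, filters, blocks, thresholds, the methods' paired t-test, and leaving out replicates or arrays. The comparisons within the A_37 series, within probes in 1 spot, within bands of signal, against NR_ probes and of detection within pairs were chosen after seeing the data, apart from the share detected among probes in 1 spot. The survival, blot and migration data of the study were not analysed here.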

Additional observations from a re-analysis of the deposited data

How the results depend on the processing

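The lower detected share of non-RefSeq probes kept its direction and passed the exact test in all alternatives. It lay between -34.0 percentage points, counted per name by a rule that favors names with more probes, and -11.9. Counts of called non-RefSeq probes moved widely, and the cause was not tested unless the setting itself uses fewer arrays or probes. For mimic145 against cntrl the count was 265 in the authors' log2 table, out of 2969 non-RefSeq probes (8.93%, against 15.2% of all kept probes). It was 159 without the replicate block (1.83%, against 4.90%) and 43 with only the arrays compared (0.495%, against 1.12%). At an adjusted p under 0.10 it was 1018 (11.7%, against 20.8%). It was 1000 by the paired t-test unadjusted and 0 after adjustment. Without 1 replicate it ran from 17 (0.196%, against 0.328% of all kept probes) to 211 (2.43%, against 4.54%). Without 1 array it ran from 214 (2.46%, against 5.81%) to 654 (7.53%, against 14.4%). For sirnaAGO2+mimic145 against sirnaAGO2 it was 833 with 75th percentile scaling (9.59%, against 6.53% of all kept probes) and 697 with normexp (8.03%, against 6.71%). With no filter it was 60 of 18510 (0.324%, against 0.435%), and over transcript means 274 (3.56%, against 3.49%). It was 3 without the replicate block (0.0346%, against 0.130%) and 0 with only the arrays compared. It was 95 with an intensity trend (1.09%, against 1.32%) and 854 at an adjusted p under 0.10 (9.84%, against 8.53%). By the paired t-test it was 983 unadjusted and 0 adjusted. Without 1 replicate it was 0 in every case, and without 1 array it ran from 0 to 696 (8.02%, against 6.43%). For sirnaAGO2 against cntrl it was 22 with 75th percentile scaling (0.253%, against 0.512% of all kept probes) and 20 with normexp (0.230%, against 0.748%). It was 6 of 2969 in the authors' table (0.202%, against 0.453%) and 4 of 18510 with no filter (0.0216%, against 0.0776%). It was 19 with an intensity trend (0.219%, against 0.739%) and 30 at an adjusted p under 0.10 (0.346%, against 0.949%). It was 0 without the replicate block, with the slide as a block and with only the arrays compared. By the paired t-test it was 807 unadjusted and 0 adjusted. It was 0 without any replicate, and 0 to 11 without 1 array (0.127%, against 0.236%). All 6 calls of the authors' table were lower. The unadjusted paired counts of these 3 comparisons are 11.5%, 11.3% and 9.30% of the non-RefSeq probes, where 18.3%, 12.1% and 13.0% of all kept probes passed. The difference of the mimic's effects gave 0 calls in all alternatives other than the unadjusted paired t-test, with 588. It has no value with only the arrays compared, as it needs all groups. Of 575 counts by class under an alternative, 261 stayed within 1.5 times, and of 279 values of named transcripts, none changed sign while 148 missed the threshold. Of the non-RefSeq probes, 35.1% were well above background on no array, and these entered the counts only in the setting with no filter.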
